A study of Homo sapiens with 12 samples.

Results

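The genes described here are the 121 protein-coding genes of chromosome 19q13 around AXL whose level passed a fixed minimum in SNU449 cells. A gene was a member when its start lay between positions 38000000 and 48500000 of chromosome 19 (GRCh38) and when the authors' mean normalized count over the 12 libraries, the deposited measure of its level, was above 30. AXL itself was left out, as were TGFB1, LTBP4, EGLN2, RELB, NFKBIB, BBC3, APOE, FOXA3, SPINT2 and every gene named CYP or SULT. Of 197 protein-coding genes of the window in the table, 121 were members, 68 lay at or under the level minimum and 8 were left out by name above it. The table held 15601 genes besides the spike-in RNAs. The members were chosen by their level and position, with no difference between groups in the rule, although the window was proposed with earlier results of these data known. The genes just outside the minimum were LRFN1 at 29.7 and ITPKC at 29.0, and those just inside it were EID2B at 30.1 and RTN2 at 30.9.

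SNU449 is a mesenchymal-like human hepatocellular carcinoma (HCC) line, and SNU449-Axl- cells descend from it after CRISPR/Cas9 disruption of AXL, a receptor tyrosine kinase gene. Both were compared as untreated control cells and after adaptation to stepwise increasing doses of the multikinase inhibitor Regorafenib (Rego), up to 2 times the IC50, with Rego renewed at each passage. The 4 groups, SNU449 control, SNU449 Rego, SNU449-Axl- control and SNU449-Axl- Rego, had 3 libraries each, made by QuantSeq, which counts the 3' ends of mRNAs. The series describes them as technical triplicates, so that each group stood for a single cell population, and each p-value measures the spread between libraries of a population and not between independently derived cells. Whether SNU449-Axl- cells were a single clone is not given in the sources used here. In the control cells AXL library values were 727, 941 and 715 with and 35, 53 and 33 without an intact gene. In the Rego-resistant cells they were 1237, 815 and 1271 against 50, 38 and 52, so that all libraries matched their labels. The mesenchymal genes VIM, CDH2, FN1, ZEB1 and SPARC were all above the level minimum. Of 8 hepatocyte markers, FGB alone was, and ALB was not in the table.

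The long arm of chromosome 19 is among the gene-densest stretches of the human genome. Around AXL it carries DNA repair genes, clusters of zinc finger genes, the placental PSG glycoprotein genes, and many housekeeping genes for ribosomes, splicing, proteasomes and mitochondria. These genes have little in common in function, but neighbours on a chromosome share its DNA copies and its chromatin domains. No measurement of DNA was analysed here, and bulk values do not tell a change in every cell from a change in the make-up of the population.

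The members are described by the side of AXL on which they start. In map order the members run from YIF1B to CYTH2. The start of AXL lies at position 41219223, 37 members start before it (nearer the centromere) and 84 after it (nearer the telomere). This division was chosen after the values had been seen, and the sides are therefore described without a test of the difference between them. The last member before AXL was SNRPA, which encodes the U1 small nuclear ribonucleoprotein A, and the next member was HNRNPUL1, which encodes an RNA-binding protein of the heterogeneous ribonucleoprotein family. Their promoters are shown since these members flank AXL. The sequences are from RefSeq (GRCh38.p14), 5' to 3', from 250 bases before to 50 bases after the start of the gene on the plus strand, at chr19:40750953-40751252 for SNRPA and chr19:41262307-41262606 for HNRNPUL1. Capitals mark matches, on either strand, to the GC box GGGCGG, to CCAAT or to TATAAA.
SNRPA: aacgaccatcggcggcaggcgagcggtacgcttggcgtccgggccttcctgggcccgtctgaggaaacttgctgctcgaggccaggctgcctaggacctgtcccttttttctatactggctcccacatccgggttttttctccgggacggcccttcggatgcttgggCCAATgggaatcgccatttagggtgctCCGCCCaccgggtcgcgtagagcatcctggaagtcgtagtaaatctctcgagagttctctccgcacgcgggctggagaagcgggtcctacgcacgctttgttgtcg
HNRNPUL1: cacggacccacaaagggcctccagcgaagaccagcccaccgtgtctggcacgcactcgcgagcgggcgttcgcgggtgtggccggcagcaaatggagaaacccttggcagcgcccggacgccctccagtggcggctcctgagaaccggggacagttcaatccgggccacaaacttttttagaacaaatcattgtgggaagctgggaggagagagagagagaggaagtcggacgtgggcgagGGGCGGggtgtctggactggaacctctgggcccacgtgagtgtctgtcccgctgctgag

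Each of these promoters held 1 GC box, and the SNRPA promoter also held 1 CCAAT. A RefSeq promoter was matched for 107 of the 121 members. Of these, 72.9% held GGGCGG on either strand, against 44.6% of all 27305 promoters of that table. CCAAT was found in 49.5% of the members' promoters against 35.7% of all, and TATAAA in 3.74% against 12%. The shares before and after AXL were 85.3% and 67.1% for GGGCGG and 67.6% and 41.1% for CCAAT. The members' promoters had a median GC content of 64%, against 58.33% for all. The matches are descriptions of these windows and say nothing of binding.

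In SNU449-Axl- Rego cells, the members after AXL lay below their level in SNU449 Rego cells almost without exception, and the members before AXL did not. Differences are given on the log2(library value + 1) scale, where the library value is the authors' batch-corrected and variance-stabilized value put back on a linear scale, which shrinks the differences of low genes. The median difference was -0.64 after AXL and 0.02 before it, against 0.01 over all genes. Of the 84 members after AXL, 83 had an estimate below 0, and 27 were called lower at an adjusted p under 0.05 (limma, Benjamini-Hochberg over all genes), with none called higher. Calls in this comparison covered 2.44% of all genes upwards and 1.93% downwards. Of the 37 members before AXL, 20 had an estimate above and 17 below 0, and 1 was called in each direction. Among the 121 members 29 were called, 24%, while 4.37% of all genes were called in this comparison. In 64 of the 84 members after AXL all 3 SNU449-Axl- Rego libraries were lower than all 3 SNU449 Rego libraries, an arrangement found in 13.2% of all genes. These levels are relative to the other genes of the same libraries. When each library was centred on its spike-in RNAs, the median of all genes rose to 0.32 and 42 of the 121 members had an estimate above 0. The test then called 5 members higher and 4 lower, while 14.9% of all genes were called.

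On the scale of counts, the fall after AXL was to 0.562 of the level in SNU449 Rego at the median, with quartiles of 0.493 and 0.666. These ratios come from group mean counts that were solved from the authors' mean normalized counts in tables of different sets of libraries. They carry no replicate error. Before AXL the median ratio was 1.01. The 25 members after AXL with a mean count above 200 had ratios from 0.36 to 0.811, all below 1, and a median of 0.563. The SD of their log2 ratios was 0.26, against 0.45 for genes of other chromosomes at that level. Of the 18 members before AXL above that level, 8 had a ratio below and 10 above 1.

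**Figure D1:**
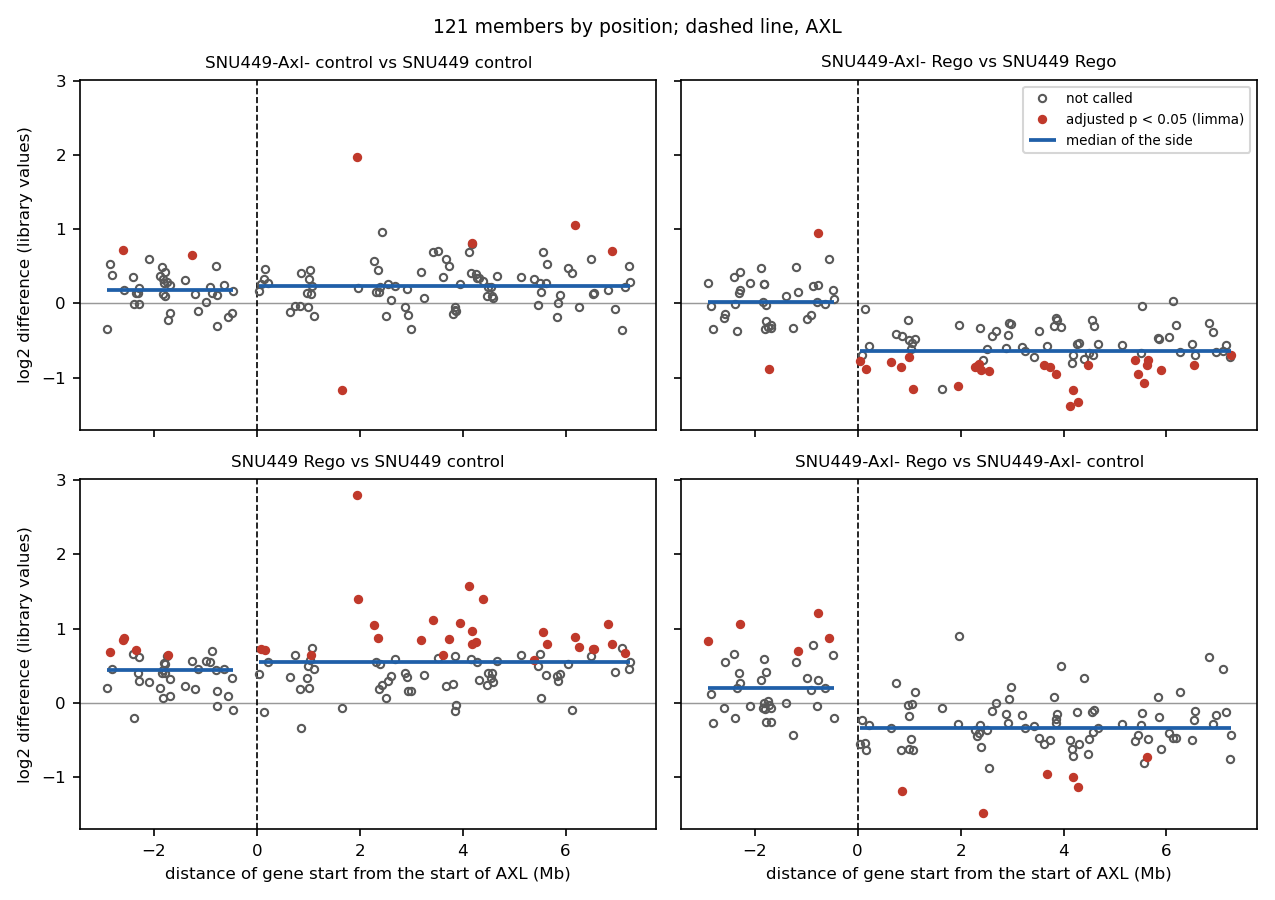
Log2 difference in library value (vertical axes) of the 121 members against the distance of their start from the start of AXL in Mb (horizontal axes), in 4 comparisons of 2 groups with 3 libraries each. Filled points were called at an adjusted p under 0.05 (limma), open points were not, and lines give the median of each side. In SNU449-Axl- Rego against SNU449 Rego the median is 0.02 before AXL and -0.64 after it.

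The genes nearest to AXL do not fix a position for the change, since estimates of single genes overlapped between the sides. Before AXL, the neighbours C19orf54 and SNRPA differed by 0.18 (adjusted p = 0.708) and 0.06 (adjusted p = 0.907) between SNU449-Axl- Rego and SNU449 Rego. SNRPA had library values of 294, 322 and 325 in SNU449 control, 310, 278 and 295 in SNU449 Rego, 312, 374 and 379 in SNU449-Axl- control and 351, 298 and 275 in SNU449-Axl- Rego, and all pairs of groups overlapped but SNU449-Axl- control, which lay just above SNU449 Rego. Between SNRPA and AXL lies CYP2S1, a cytochrome P450 gene that the rule left out and that starts at position 41193210. It had an estimate of -0.53 (adjusted p = 0.238) and a count ratio of 0.612. HNRNPUL1, directly beyond AXL, had library values of 1324, 1191 and 1210 in SNU449 control, 1761, 1665 and 1461 in SNU449 Rego, 1276, 1351 and 1568 in SNU449-Axl- control and 894, 993 and 960 in SNU449-Axl- Rego. Its SNU449-Axl- Rego libraries were the lowest of the 12 and its difference from SNU449 Rego was -0.78 (SE 0.18, adjusted p = 0.0161), with a count ratio of 0.574. The call was lost when SNU449 Rego replicate 1 or 2 or any SNU449-Axl- Rego library was left out, with differences between -0.88 and -0.70 over the 12 refits. Of the next members, CCDC97 differed by -0.70 (adjusted p = 0.0582) and B9D2, which encodes a component of the ciliary transition zone, by -0.07 (adjusted p = 0.901). TGFB1, between HNRNPUL1 and CCDC97 and no member, had an estimate of -0.41 (adjusted p = 0.266). HNRNPUL1 and CCDC97 both overlap TGFB1 on the opposite strand, and whether the counting used strand is not given in the sources used here.

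SNU449 Rego cells had the members at a higher level than SNU449 control cells on both sides of AXL. The median difference was 0.44 before AXL and 0.55 after it, with median count ratios of 1.48 and 1.59. Of the 121 members 112 had an estimate above 0 and 32 were called, all higher, which is 26.4% against 7.81% of all genes (4.31% higher and 3.5% lower). The called members were 5 of 37 before AXL and 27 of 84 after it. All 25 members after AXL with a mean count above 200 had a ratio above 1, from 1.14 to 2.69. When each library was centred on its spike-in RNAs, 14 members were called, all higher, while 6.43% of all genes were called.

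In SNU449-Axl- cells the medians of the Rego comparison had opposite signs on the 2 sides of AXL, and the calls before AXL depended on single libraries. Against SNU449-Axl- control, the median difference in SNU449-Axl- Rego was 0.20 before AXL and -0.34 after it, with count ratios of 1.19 and 0.712. Before AXL 5 members were called higher and none lower, and after AXL 6 were called lower and none higher. Without SNU449-Axl- control replicate 3 no member was called higher and 10 were called lower, all after AXL, and 3.07% of all genes were called. The median before AXL, relative to all genes, was then 0.067 against 0.19 with all libraries. Without SNU449-Axl- Rego replicate 2 a single member was called, lower and after AXL, and 1.31% of all genes were called. The 11 calls were 9.09% of the members, against 4.35% of all genes (2.54% higher and 1.81% lower). Without the replicate number as a block 29 members were called, 10 higher and 19 lower, while 9.95% of all genes were called. With libraries centred on their spike-in RNAs 7 were higher and 3 lower, while 4.56% of all genes were called.

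In untreated cells the loss of AXL went with a smaller difference, of the same sign on both sides. The median difference of SNU449-Axl- control from SNU449 control was 0.18 before AXL and 0.23 after it, with count ratios of 1.19 and 1.25. The test called 6 members higher and 1 lower, 5.79% of the members against 7.45% of all genes (4.03% higher and 3.43% lower), so that the share of calls was not above that of the other genes. After centring on the spike-in RNAs 11 members were called higher and none lower, while 8% of all genes were called. Without the replicate block 15 were called higher and 1 lower, while 14% of all genes were called.

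The difference between the Rego effects in the 2 backgrounds, which is the interaction in the fit, had a median of -0.16 before AXL and -0.91 after it. It was called for 31 members, 30 of them with a lower Rego effect in SNU449-Axl- cells and 1 with a higher one, which is 25.6% against 5.87% of all genes (2.92% higher and 2.95% lower). Of the 31, 28 lay after AXL.

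**Figure D2:**
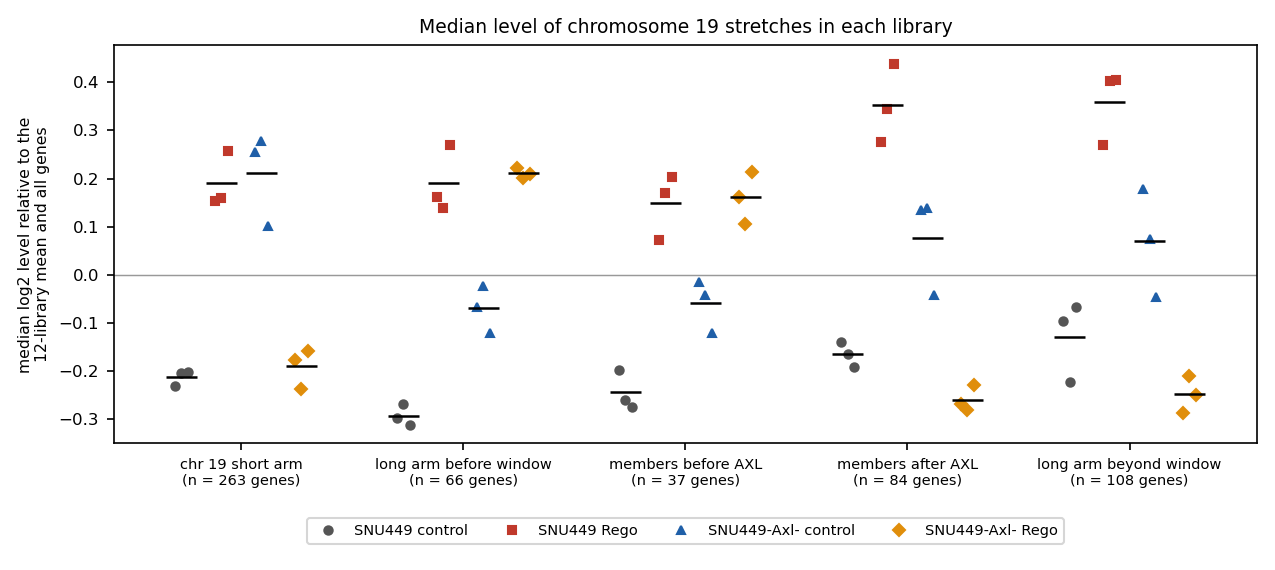
Median log2 level of the genes of 5 stretches of chromosome 19 in each of the 12 libraries, relative to the mean of the 12 libraries and to all genes (vertical axis), by stretch (horizontal axis). Points are libraries, symbols mark the groups and black lines are group means of 3 libraries. After AXL the SNU449-Axl- Rego libraries lie from -0.28 to -0.23, below all others, and before AXL they lie from 0.11 to 0.21 and overlap those of SNU449 Rego.

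Library by library, the groups took a different order on each side. After AXL, the median member lay at 0.353 ± 0.082 (SD, n = 3) in SNU449 Rego, 0.077 ± 0.10 in SNU449-Axl- control, -0.166 ± 0.025 in SNU449 control and -0.260 ± 0.027 in SNU449-Axl- Rego on the log2 scale, relative to all genes. The 12 libraries did not overlap between these 4 groups. SNU449-Axl- control replicate 3, at -0.04, was lower than replicates 1 and 2 at 0.13 and 0.14. Before AXL, SNU449-Axl- Rego at 0.161 ± 0.054 and SNU449 Rego at 0.148 ± 0.068 overlapped, and lay above SNU449-Axl- control at -0.059 ± 0.055 and SNU449 control at -0.245 ± 0.040. The lowest group thus differed between the sides: SNU449 control before AXL and SNU449-Axl- Rego after it.

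The stretch on which the members lie was not the only part of chromosome 19 that shifted. In SNU449-Axl- Rego against SNU449 Rego, the 108 protein-coding genes beyond the window towards the telomere had a median difference of -0.57, close to that of the members after AXL, and 32 of them were called lower. The 66 genes between the centromere and the window had a median of -0.01 in that comparison and 0.30 in SNU449-Axl- Rego against its own control, close to the members before AXL. On the short arm the median of 263 genes was -0.38, with 21 called lower. Of the genes beyond the window 29.6% were called lower and of those on the short arm 7.98%, against 1.93% of all genes. The 8530 protein-coding genes of other chromosomes had a median of 0.02. Genes above the level minimum entered these counts, as for the members.

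Among 187 windows of 10 Mb that held at least 20 such genes, the window of chromosome 19 from 40 to 50 Mb had the largest median difference of the genome in SNU449-Axl- Rego against SNU449 Rego (-0.58) and in SNU449 Rego against SNU449 control (0.51). It ranked 18 in SNU449-Axl- Rego against its control, 58 in the untreated comparison and 3 in the interaction (-0.78), behind chromosome 19 from 10 to 20 Mb (-0.91) and chromosome 4 from 80 Mb (0.81). In SNU449 Rego against SNU449 control the next windows were also on chromosome 19, from 30 Mb (0.45), from 50 Mb (0.44) and from 10 Mb (0.44). Windows of other chromosomes reached 0.51 (chromosome 8, from 10 Mb) and -0.48 (chromosome 16, from 70 Mb) in SNU449-Axl- Rego against SNU449 Rego. In the untreated comparison the largest was 0.78, on chromosome 5 from 30 Mb.

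**Figure D3:**
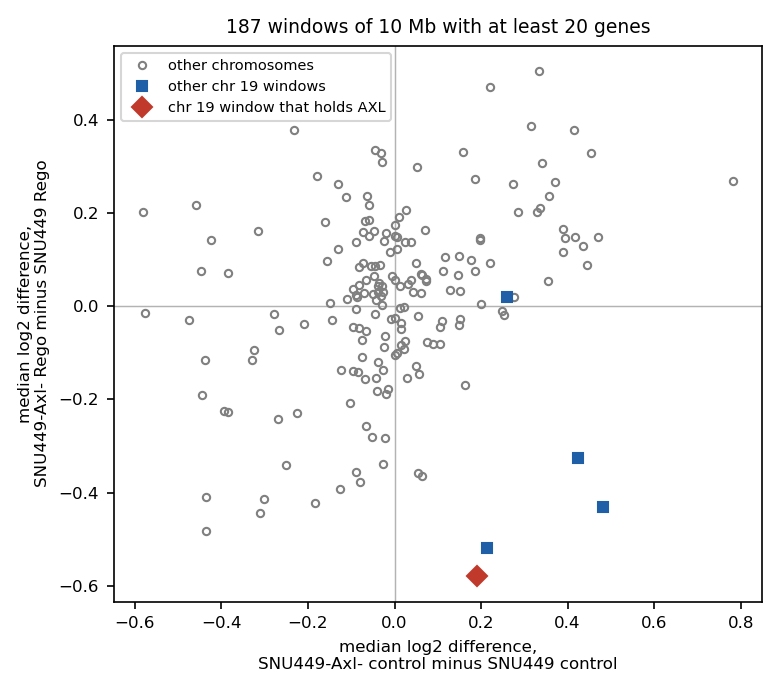
Median log2 difference of 187 windows of 10 Mb in the untreated cells (horizontal axis, SNU449-Axl- control minus SNU449 control) and in the Rego-resistant cells (vertical axis, SNU449-Axl- Rego minus SNU449 Rego), which have no library in common. The window that holds AXL has the lowest value on the vertical axis, -0.58, at 0.19 on the horizontal axis.

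The members are rich in GC. The last 300 bases of their transcripts, from which the libraries are primed, had a median GC content of 50.7%, against 37% for genes of other chromosomes. After each difference had been taken relative to protein-coding genes of other chromosomes of similar GC content, the median in SNU449-Axl- Rego against SNU449 Rego was -0.61 after AXL and 0.06 before it.

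**Figure D4:**
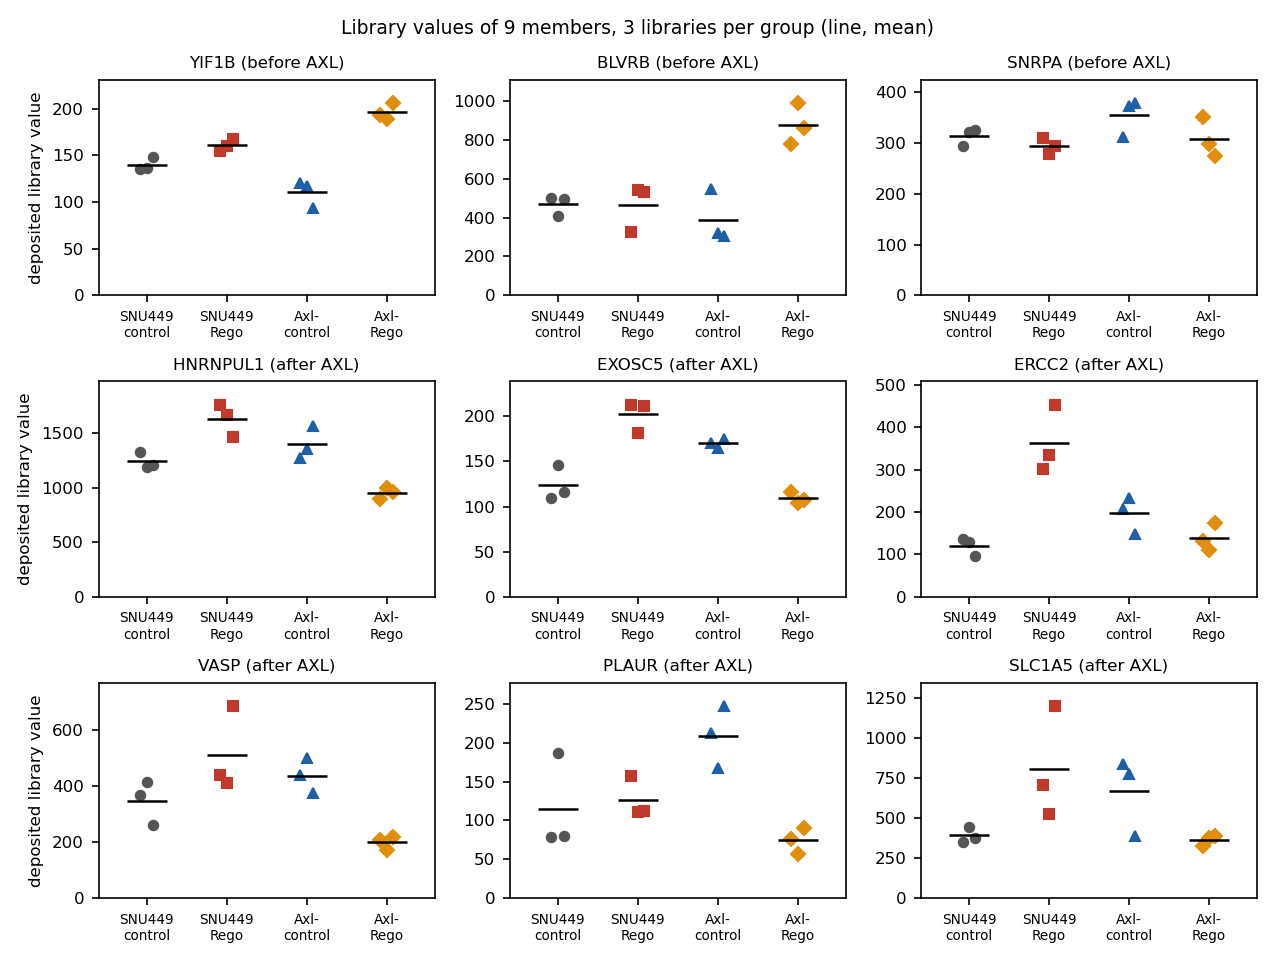
Deposited library values (vertical axes, linear from 0) of 9 members in the 4 groups (horizontal axes), with 3 libraries per group as points and the mean as a line. SNU449-Axl- Rego is lowest for HNRNPUL1, EXOSC5, VASP, PLAUR and SLC1A5 by its mean and highest for YIF1B and BLVRB.

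The 4 DNA repair genes all lie after AXL, and the interaction was called for each of them. It was called for 33.3% of all members after AXL and for 5.87% of all genes. ERCC2, the XPD helicase of the repair and transcription factor TFIIH, had library values of 136, 130 and 95 in SNU449 control, 301, 334 and 453 in SNU449 Rego, 206, 234 and 149 in SNU449-Axl- control and 132, 110 and 175 in SNU449-Axl- Rego. The SNU449 Rego libraries were the highest and did not overlap any other group. ERCC2 was 1.58 higher in SNU449 Rego than in SNU449 control (SE 0.24, adjusted p = 0.00038) and differed by -1.38 (SE 0.24, adjusted p = 0.00236) between SNU449-Axl- Rego and SNU449 Rego, the largest fall of any member on the log2 scale in that comparison, at a count ratio of 0.34. Its interaction was -2.08 (SE 0.34, adjusted p = 0.0012), and all 3 calls held whichever library was left out.

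ERCC1, the partner of the XPF nuclease in nucleotide excision repair, had library values of 188, 175 and 207 in SNU449 control, 247, 353 and 414 in SNU449 Rego, 445, 356 and 237 in SNU449-Axl- control and 206, 195 and 211 in SNU449-Axl- Rego. Its interaction of -1.51 (adjusted p = 0.0106) was called in all 12 refits, while its rises of 0.82 with the loss of AXL and 0.80 with Rego in SNU449 (adjusted p = 0.041 and 0.0443) were each called in 3 of the 12. LIG1, the ligase that joins Okazaki fragments, rose by 0.80 in SNU449 Rego (adjusted p = 0.0117, lost only without SNU449 Rego replicate 1) and by 0.71 in SNU449-Axl- control (adjusted p = 0.0267, called in 7 of 12 refits). Its interaction was -1.09 (adjusted p = 0.0191), called in 8 of 12 refits. XRCC1, the scaffold of single-strand break repair, had a difference of -0.85 (adjusted p = 0.0171) in SNU449-Axl- Rego against SNU449 Rego and an interaction of -1.01 (adjusted p = 0.0362). No refits were taken for XRCC1. POLR1G, a subunit of RNA polymerase I, overlaps ERCC1 on the opposite strand over 3404 bases. Its values were 171, 325 and 182 in SNU449 control, 457, 350 and 471 in SNU449 Rego, 379, 407 and 348 in SNU449-Axl- control and 219, 140 and 218 in SNU449-Axl- Rego, and it differed by -1.16 (adjusted p = 0.0113) between SNU449-Axl- Rego and SNU449 Rego, by -1.0 (adjusted p = 0.0283) between SNU449-Axl- Rego and its control, and by -1.96 (adjusted p = 0.00252) in the interaction. The interaction was called in all 12 refits. The call against SNU449 Rego was lost without SNU449 Rego replicate 1 or 3 or SNU449-Axl- Rego replicate 2, over a range from -1.34 to -0.88.

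The genes of the actin cytoskeleton showed both sides of AXL. VASP, a promoter of actin filament elongation after AXL, had library values of 368, 413 and 260 in SNU449 control, 439, 412 and 684 in SNU449 Rego, 437, 499 and 374 in SNU449-Axl- control and 206, 172 and 219 in SNU449-Axl- Rego. All SNU449-Axl- Rego libraries lay below the other 9. VASP differed by -1.33 (SE 0.23, adjusted p = 0.00244) from SNU449 Rego, called in all 12 refits, and by -1.13 (SE 0.23, adjusted p = 0.00838) from SNU449-Axl- control, a call lost without SNU449-Axl- control or SNU449-Axl- Rego replicate 2. ARHGAP35, the GTPase-activating protein p190RhoGAP, also after AXL, rose by 0.79 in SNU449 Rego (adjusted p = 0.00929) and had an interaction of -1.28 (adjusted p = 0.00506) that held in all refits. ACTN4, an actin crosslinker at the far end before AXL, had values of 6030, 5544 and 4028 in SNU449 control, 7870, 8389 and 12421 in SNU449 Rego, 5343, 6742 and 5412 in SNU449-Axl- control and 9328, 7544 and 8735 in SNU449-Axl- Rego. It rose by 0.87 in SNU449 Rego (adjusted p = 0.0186), and SNU449-Axl- Rego differed from SNU449 Rego by -0.14 (adjusted p = 0.799).

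Of 11 listed cell surface genes 7 were members, all after AXL. In SNU449-Axl- Rego against SNU449 Rego 3 of the 7 were called lower, where 1.93% of all genes were, and in SNU449 Rego against SNU449 control 3 were called higher, where 4.31% of all genes were. PLAUR, the urokinase receptor, had library values of 79, 187 and 80 in SNU449 control, 157, 111 and 112 in SNU449 Rego, 212, 168 and 247 in SNU449-Axl- control and 76, 57 and 90 in SNU449-Axl- Rego. The SNU449-Axl- Rego libraries did not overlap those of SNU449-Axl- control, and the fall of -1.49 (SE 0.29, adjusted p = 0.00625) was the largest of any member with Rego in SNU449-Axl- cells. It was lost only without SNU449-Axl- Rego replicate 2, over a range from -1.68 to -1.25. SLC1A5, a glutamine transporter, had values of 352, 447 and 377 in SNU449 control, 703, 522 and 1197 in SNU449 Rego, 838, 772 and 391 in SNU449-Axl- control and 327, 376 and 385 in SNU449-Axl- Rego, with SNU449 Rego replicate 3 and SNU449-Axl- control replicate 3 far from the other libraries of their groups. Its interaction was -1.77 (adjusted p = 0.0147), lost without SNU449-Axl- Rego replicate 1 or SNU449-Axl- control replicate 2, and its difference from SNU449 Rego was -1.07 (adjusted p = 0.0429), called in 5 of 12 refits. NECTIN2, a cell adhesion molecule, had values of 272, 208 and 256 in SNU449 control, 327, 415 and 407 in SNU449 Rego, 338, 340 and 268 in SNU449-Axl- control and 207, 212 and 223 in SNU449-Axl- Rego. It differed by -0.83 (adjusted p = 0.0179) from SNU449 Rego and by -1.19 (adjusted p = 0.0126) in the interaction, which was lost only without SNU449-Axl- control replicate 2. PVR, the poliovirus receptor, rose by 1.11 in SNU449 Rego (adjusted p = 0.0299), where replicate 3 had a value of 977 against 480 and 426. The call was lost without that library (and without SNU449 control replicate 1 or 3), over a range from 0.62 to 1.5.

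Several lists of housekeeping genes had members on both sides of AXL. Of the 5 ribosomal and ribosome assembly genes, RPS16 and FBL before AXL differed by -0.02 and 0.10 between SNU449-Axl- Rego and SNU449 Rego, and neither was called. RPS19 and NOP53 after AXL were called lower, by -0.79 (adjusted p = 0.0298) and -0.84 (adjusted p = 0.00976), and GRWD1 had -0.72 (adjusted p = 0.0663). RPS16 and RPS19 are both proteins of the small ribosomal subunit. RPS16 had values of 8545, 7740 and 9350 in SNU449 control, 11534, 14059 and 11339 in SNU449 Rego, 10282, 8867 and 8262 in SNU449-Axl- control and 11329, 11900 and 13109 in SNU449-Axl- Rego, and the groups with Rego overlapped. RPS19 had values of 7713, 8623 and 10531 in SNU449 control, 10643, 13398 and 10025 in SNU449 Rego, 9347, 8236 and 7234 in SNU449-Axl- control and 7004, 5648 and 7037 in SNU449-Axl- Rego, and SNU449-Axl- Rego lay below SNU449 Rego in every library, at a count ratio of 0.581 against 0.985 for RPS16.

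Of the 14 genes of RNA polymerase II elongation, splicing and mRNA processing, 5 lie before AXL, with a median difference of 0.02 between SNU449-Axl- Rego and SNU449 Rego and no call. The 9 after AXL had a median of -0.48, with 3 called lower and none higher. Among all 84 members after AXL 27 were called lower, and 1.93% of all genes were. The 3 of this list were HNRNPUL1, the exosome subunit EXOSC5 and the spliceosomal protein SNRPD2. EXOSC5 had values of 109, 146 and 116 in SNU449 control, 213, 182 and 211 in SNU449 Rego, 170, 165 and 175 in SNU449-Axl- control and 116, 104 and 107 in SNU449-Axl- Rego. Its SNU449 Rego libraries were above all others, and its interaction of -1.35 (SE 0.26, adjusted p = 0.00453) was called in all 12 refits. Intervals at 95% (limma) for the difference of SNU449-Axl- Rego from SNU449 Rego ran from -0.40 to 0.44 for the elongation factor gene PAF1 and from -0.43 to 0.42 for the splicing regulator HNRNPL, both before AXL.

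The proteasome genes PSMD8 and PSMC4, before AXL, differed by -0.04 and -0.33 in that comparison and were not called. SAE1, a subunit of the SUMO-activating enzyme and after AXL, fell by 0.90 (adjusted p = 0.00673). PSMC4 rose by 0.66 in SNU449-Axl- control (adjusted p = 0.0393), with an interaction of -0.99 (adjusted p = 0.0322), and PSMD8 by 0.69 in SNU449 Rego (adjusted p = 0.0199). Among the 8 mitochondrial genes, the 4 before AXL (ECH1, MRPS12, SARS2 and TIMM50) had a median of 0.16 between SNU449-Axl- Rego and SNU449 Rego, and the 4 after it (DMAC2, ETHE1, OPA3 and TOMM40) one of -0.58. ETHE1, the persulfide dioxygenase, was called lower (-0.85, adjusted p = 0.0318) and had been raised by 1.06 in SNU449 Rego (adjusted p = 0.00491), the latter call kept in all 12 refits. TOMM40, the channel of the outer mitochondrial membrane translocase, fell by 0.95 with Rego in SNU449-Axl- cells (adjusted p = 0.0238, called in 8 of 12 refits).

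Kinases, trafficking genes and transcription regulators were also spread over both sides. The 6 kinase and phosphatase genes had estimates above 0 in SNU449 Rego against SNU449 control and none was called. AKT2, before AXL, differed by -0.22 between SNU449-Axl- Rego and SNU449 Rego (adjusted p = 0.592), and of the 4 after AXL, MARK4 (-0.95, adjusted p = 0.0234) and PRKD2 (-0.94, adjusted p = 0.0169) were called lower. MARK4 overlaps PPP1R37, GEMIN7 and TRAPPC6A, and the handling of reads within the overlaps is not given in the sources used here. Of the 8 trafficking genes, 2 were called lower in SNU449-Axl- Rego than in SNU449 Rego, 2 higher in SNU449 Rego than in SNU449 control, and 3 had a lower Rego effect in SNU449-Axl- cells than in SNU449 cells. Over all 121 members these calls numbered 28, 32 and 30, and over all genes they covered 1.93%, 4.31% and 2.95%. AP2S1, a subunit of the clathrin adaptor, had values of 633, 601 and 657 in SNU449 control, 753, 903 and 806 in SNU449 Rego, 852, 755 and 685 in SNU449-Axl- control and 445, 440 and 497 in SNU449-Axl- Rego. Its SNU449-Axl- Rego libraries were the lowest of the 12, and it fell by 0.83 against SNU449 Rego (adjusted p = 0.0106) and by 0.73 against SNU449-Axl- control (adjusted p = 0.0244), calls kept in 9 and 7 of the 12 refits. Of the 8 transcription regulators, MEIS3, a homeobox gene, rose by 1.06 in SNU449-Axl- control (adjusted p = 0.00994, lost without SNU449 control or SNU449-Axl- control replicate 2), and none of the 8 was called between SNU449-Axl- Rego and SNU449 Rego.

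The zinc finger genes were 14. Both members before AXL, ZNF780A and ZNF780B, had higher estimates in SNU449-Axl- Rego than in SNU449-Axl- control (0.70 and 0.56). All 12 after AXL had estimates below 0 against SNU449 Rego, with a median of -0.51, and ZNF428, ZNF526 and ZNF574 were called. Of all 84 members after AXL 27 were called lower, and of all genes 1.93% were. Zinc finger genes are closely related in sequence. How reads that match more than 1 of them were counted is not given in the sources used here.

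The PSG genes, which encode pregnancy-specific glycoproteins and are near-identical copies of each other, are counted with uncertainty for that reason. PSG5 had library values of 62, 48 and 28 in SNU449 control, 235, 414 and 305 in SNU449 Rego, 182, 132 and 222 in SNU449-Axl- control and 128, 129 and 177 in SNU449-Axl- Rego. It was 2.80 higher in SNU449 Rego than in SNU449 control (SE 0.28, adjusted p = 5.19e-06) and 1.97 higher in SNU449-Axl- control (SE 0.28, adjusted p = 0.000293), the largest rise of any member in both comparisons, and both calls held in all 12 refits. PSG1, of the same cluster, went the other way in untreated cells, with values of 268, 150 and 100 in SNU449 control, 108, 230 and 139 in SNU449 Rego, 72, 47 and 104 in SNU449-Axl- control and 55, 70 and 79 in SNU449-Axl- Rego. It was the single member called lower in SNU449-Axl- control (-1.16, adjusted p = 0.0467), in 4 of 12 refits. PSG4 rose by 1.40 in SNU449 Rego (adjusted p = 0.0221), a call lost without SNU449 control replicate 3, the library with a value of 21, or without SNU449 Rego replicate 3.

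Some members ran against the median shift of all 121 members, of which 84 start after AXL. BLVRB, which encodes biliverdin reductase B and starts before AXL, had library values of 502, 406 and 498 in SNU449 control, 325, 543 and 531 in SNU449 Rego, 547, 319 and 305 in SNU449-Axl- control and 781, 990 and 864 in SNU449-Axl- Rego. The SNU449-Axl- Rego libraries were above the other 9. BLVRB was the single member called higher in SNU449-Axl- Rego than in SNU449 Rego (0.94, SE 0.25, adjusted p = 0.0348, count ratio 1.86). The call was lost without SNU449 Rego replicate 1 or any SNU449-Axl- Rego library, over a range from 0.62 to 1.11. Its rise against SNU449-Axl- control was 1.21 (SE 0.25, adjusted p = 0.00771), lost without SNU449-Axl- control replicate 2 or 3 or SNU449-Axl- Rego replicate 2. BLVRB was also the single member with a positive interaction call (1.25, adjusted p = 0.0388, called in 4 of 12 refits).

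The other members called higher with Rego in SNU449-Axl- cells, where the median of all members was below 0, also start before AXL. They were YIF1B, a factor of transport between the endoplasmic reticulum and the Golgi (0.83, adjusted p = 0.0126), FBXO17, an F-box protein gene (1.06, adjusted p = 0.0239), NUMBL, a relative of the Notch regulator NUMB (0.88, adjusted p = 0.0235), and ZNF780A (0.70, adjusted p = 0.0499). Before AXL the median of that comparison was 0.20, with 23 estimates above 0 and 14 below. These calls and that of BLVRB thus went with their own side in that comparison. BLVRB did not follow its side in SNU449 Rego against SNU449 control, at -0.04 where the median before AXL was 0.44. In SNU449-Axl- Rego against SNU449 Rego it was at 0.94 and in the interaction at 1.25, where those medians were 0.02 and -0.16. YIF1B had values of 135, 136 and 148 in SNU449 control, 155, 160 and 168 in SNU449 Rego, 120, 117 and 94 in SNU449-Axl- control and 193, 189 and 206 in SNU449-Axl- Rego, and the libraries of these 4 groups did not overlap. The calls of YIF1B, FBXO17, NUMBL and ZNF780A were kept in 8, 6, 7 and 5 of the 12 refits in that order. DLL3, a Notch ligand, was the one member before AXL called lower in SNU449-Axl- Rego than in SNU449 Rego (-0.89, adjusted p = 0.00905). Its values were 74, 73 and 81 in SNU449 control, 114, 119 and 125 in SNU449 Rego, 72, 60 and 64 in SNU449-Axl- control and 62, 72 and 59 in SNU449-Axl- Rego, so that SNU449 Rego stood above the other 3 groups.

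After AXL, DHX34, an RNA helicase of nonsense-mediated decay, was the one member with an estimate above 0 between SNU449-Axl- Rego and SNU449 Rego (0.03, adjusted p = 0.964). B9D2 had a small difference too (-0.07). The mean counts of DHX34 and B9D2 were 34.5 and 63.1, and the count ratios were 1.02 and 0.936. DHX34 and B9D2 were also among the members with the lowest count ratios in SNU449 Rego against SNU449 control, with POU2F2, GEMIN7 and HNRNPL (0.655, 0.859, 0.865, 0.873 and 0.891 for POU2F2, DHX34, B9D2, HNRNPL and GEMIN7). POU2F2, an octamer-binding transcription factor, fell by 1.19 in SNU449-Axl- Rego against its control (adjusted p = 0.0162), a call lost without any SNU449-Axl- Rego library or SNU449-Axl- control replicate 1.

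Of the members, 59 were called in at least 1 of the 4 comparisons or the interaction and 62 in none, so that 48.8% were called at least once against 16.6% of all genes. The comparisons of SNU449 Rego with its control and with SNU449-Axl- Rego share the SNU449 Rego libraries and are not independent of each other, and the same holds for the others that share a group.

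**Figure D5:**
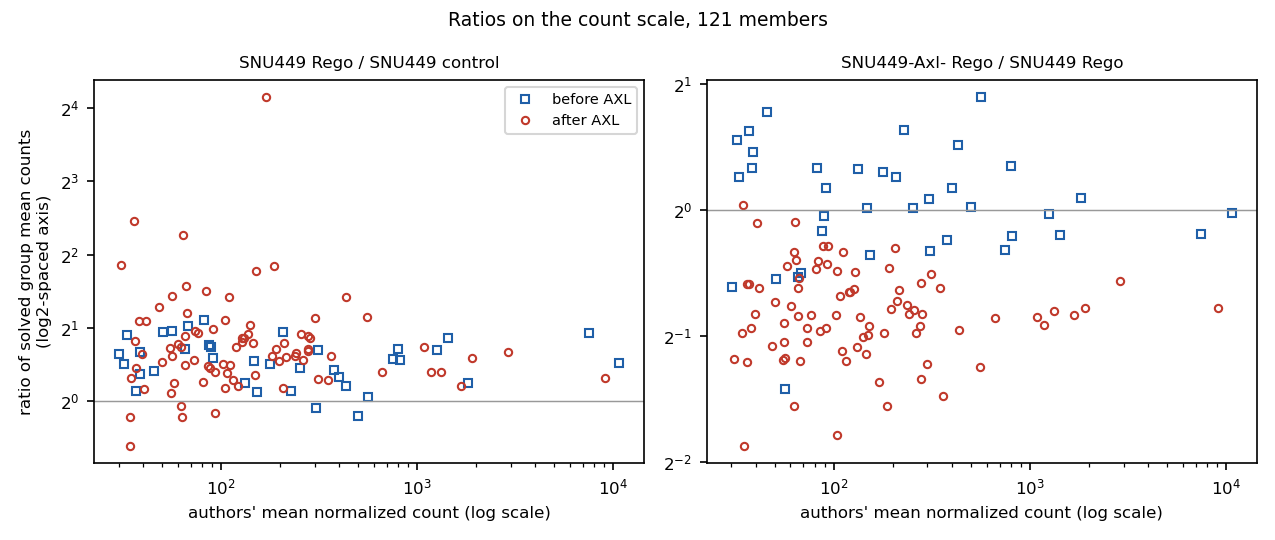
Ratios of solved group mean counts (vertical axes, log2-spaced) of the 121 members against the authors' mean normalized count (horizontal axes, log scale), for SNU449 Rego over SNU449 control (left) and SNU449-Axl- Rego over SNU449 Rego (right). Squares start before and circles after AXL. On the right the circles above a mean count of 200 lie between 0.36 and 0.811.

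The counts of called members moved with single libraries. Between SNU449-Axl- Rego and SNU449 Rego, leaving out any 1 of the 6 libraries of the 2 groups left 7 to 17 members called, against 1.4% to 2.53% of all genes. In that order the counts were 17, 12 and 10 without SNU449 Rego replicates 1 to 3 and 8, 7 and 10 without SNU449-Axl- Rego replicates 1 to 3. Relative to all genes, the median after AXL stayed between -0.71 and -0.56 over all 12 refits, and that before AXL between -0.02 and 0.07. For the interaction the median before AXL ranged from -0.25 without SNU449-Axl- control replicate 1 to -0.080 without SNU449 Rego replicate 3, against -0.17 with all libraries. Between SNU449 Rego and SNU449 control the counts were 19, 14 and 13 without SNU449 control replicates 1 to 3 and 17 and 7 without SNU449 Rego replicates 2 and 3. In that order 6.2%, 4.74%, 5.92%, 5% and 4.75% of all genes were called, and the last count was 5.79% of the members. With Rego in SNU449-Axl- cells they were 5 and 3 without SNU449-Axl- control replicates 1 and 2, 5, 1 and 5 without SNU449-Axl- Rego replicates 1 to 3, and 17 without SNU449 control replicate 3. The shares of all genes were 3.33%, 1.56%, 1.97%, 1.31%, 2.33% and 5.71% in that order, and the count of 1 was 0.826% of the members. For the interaction they were 20 without SNU449 Rego replicate 1 or 2, 15 without SNU449-Axl- control replicate 2, and 17, 17 and 20 without SNU449-Axl- Rego replicates 1 to 3. All genes were called at 4.12%, 4.29%, 3.41%, 3.74%, 3.35% and 4.29% in that order. In the untreated comparison they were 4 without SNU449 control replicate 1 or 3 or SNU449-Axl- Rego replicate 1 or 3, and 3 and 2 without SNU449-Axl- control replicates 1 and 2. These counts of 4, 3 and 2 were 3.31%, 2.48% and 1.65% of the members, below the shares of all genes (4.54%, 6.62%, 5.97%, 6.37%, 5.51% and 3.46% in the order of the libraries). Centring on the spike-in RNAs put the median of all genes between SNU449-Axl- Rego and SNU449 Rego at 0.32, against 0.01 as deposited. It left 9 members called, 5 of them higher and 4 lower, while 14.9% of all genes were called, 2242 genes higher and 84 lower. The falls given here are therefore relative to the other genes of the same libraries.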

How the data were processed

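RNA from 12 SNU449 libraries, 3 in each of 4 groups, had been sequenced with QuantSeq 3' mRNA-seq. The authors trimmed reads with cutadapt 4.0, aligned them with STAR 2.5.3a to GRCh38 with spike-in sequences, and analysed gene counts in DESeq2 with a term for the preparation date. The deposited library values are scores: the authors' variance-stabilized values after removal of the preparation date, put back on a linear scale and rounded, with a lowest value of 12, and no counts. The deposited mean normalized count is a signal that the authors pooled over the libraries of a table. Columns with the authors' own fold changes, test statistics, p-values and group averages were not used. How deeply each library was sequenced is unknown. Over genes, the mean normalized counts summed to 4510000.

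For this report, log2(value + 1) of all 15601 genes was modelled by lmFit and a trended eBayes (limma 3.58.1, R 4.3.3), with group and replicate number as terms over the 12 libraries and 6 residual degrees of freedom, and p-values were adjusted by Benjamini-Hochberg over all genes at 0.05. The replicate number entered as a block since the authors had removed the preparation date from the values and earlier work on these data had found that removal to follow the number. In the files, the means of same-numbered libraries then deviated by a median of 0.00126 on the log2 scale, against 0.122 for single libraries. That the number marks the date is not given in the sources used here. On simulated data of 15601 genes, for SNU449-Axl- Rego against SNU449 Rego, 119 of 200 genes changed by 1 log2 unit were recovered with 5 false calls, and without the block 161 with 60 false calls. In the simulation a preparation effect was added and removed along the replicate number, so it cannot show whether the number marks the date. Group mean counts were solved from the mean normalized counts of 6 pair tables and a 12-library table, with a median error of 0.0212% for the members. Named genes were the 5 largest rises and falls among called members without overlap between groups, members against the shift, the neighbours of AXL, those at the level minimum and at the ends of the window, listed genes called in at least 2 comparisons, and the extremes of the count ratios. Examples of the lists beyond these were chosen after their values were seen. The members and the lists of genes were chosen with earlier results of these data known. Alternatives were the scaling (upper quartile, spike-in RNAs), pseudocount (10), level minimum (10, 100), table, the block and leaving out each library. GC correction and the division at AXL were added after the data had been seen. Overlapping genes were counted as the authors had: 45 members overlap another gene of the table, 37 of them on the opposite strand.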

Additional observations from a re-analysis of the deposited data

Results flagged for a closer look

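For 31 members the Rego effect in SNU449-Axl- cells differed from that in SNU449 cells by the interaction test in limma (adjusted p under 0.05 over all genes). The values are the Rego effect in SNU449-Axl- cells minus that in SNU449 cells on the log2 scale. Among genes of DNA repair and of RNA polymerase I they were -2.08 for ERCC2, -1.96 for POLR1G, -1.51 for ERCC1, -1.09 for LIG1 and -1.01 for XRCC1. At the cell surface, at membranes and in the cytoskeleton they were -1.77 for SLC1A5, -1.72 for PLAUR, -1.67 for VASP, -1.36 for CLPTM1, -1.28 for ARHGAP35, -1.19 for NECTIN2, -1.14 for EHD2, -1.10 for AP2S1 and -0.98 for CYTH2. In RNA processing, ribosome assembly and translation they were -1.35 for EXOSC5, -1.22 for GRWD1, -0.96 for NOP53, -0.94 for HNRNPUL1 and -0.92 for EIF3K. In mitochondria, protein turnover and metabolism they were -1.42 for ETHE1, -1.38 for PAFAH1B3, -1.18 for TOMM40, -1.01 for SAE1 and -0.99 for PSMC4. PSG5, a near-identical copy of other PSG genes, had -3.08. The remaining negative values were -1.35 for MEIS3, -1.27 for IRGQ, -1.12 for ZNF428, -1.09 for CALM3 and -1.0 for ZNF229. BLVRB had the positive value, 1.25. Groups of 3 libraries are too small for a test of single outlying libraries.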

How the results depend on the processing

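The medians over all members, taken relative to all genes, kept their sign in the alternatives that could change it. That leaves out spike-in and upper quartile scaling, which shift all genes alike. It also leaves out the fit without the replicate block, in which the estimates stay the same. Relative to the median of all genes, the members' median differences were 0.22 (untreated cells), -0.48 (SNU449-Axl- Rego against SNU449 Rego), 0.49 (Rego in SNU449), -0.20 (Rego in SNU449-Axl-) and -0.67 (interaction). With solved counts they were 0.30, -0.62, 0.61 and, for the interaction, -0.95. With a level minimum of 100 they were -0.59, 0.56, -0.29 and -0.92 for the last 4, and in the tables of single pairs of groups -0.33 and 0.41 for SNU449-Axl- Rego against SNU449 Rego and for Rego in SNU449. GC correction gave -0.41 for SNU449-Axl- Rego against SNU449 Rego. Without 1 library each they ranged from 0.16 to 0.28, -0.53 to -0.44, 0.44 to 0.57, -0.24 to -0.15 and -0.73 to -0.60.

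The counts of called members moved more. In the order above they were 7, 29, 32, 11 and 31. Without the replicate block they were 16, 44, 48, 29 and 50, and 14%, 9.63%, 13.9%, 9.95% and 11.7% of all genes were called. After centring on spike-in RNAs they were 11, 9, 14, 10 and 12, and 8%, 14.9%, 6.43%, 4.56% and 5.81% of all genes were called. The median of all genes then lay at 0.13, 0.32, -0.058, 0.13 and 0.19. In the pair tables they were 1 in untreated cells, 49 between the Rego-resistant cells and 6 for Rego in SNU449, and with a level minimum of 100 the last was 21. The share of all genes called was not taken in the pair tables, so those counts have no background to be read against. Without 1 library each they ranged from 2 to 10, 7 to 33, 7 to 38, 1 to 17 and 15 to 31. The shares of all genes ranged from 3.46% to 8.17%, 1.4% to 5.29%, 4.74% to 8.33%, 1.31% to 5.71% and 3.35% to 5.91%. Of 71 called pairs of a named gene and a comparison, which include 2 for AXL, none changed sign. Without the block all 71 were also called, which is no support, since estimates stay the same and calls rise over all genes. After spike-in centring 32 were lost, and 18 of 53 in the pair fits. Whether libraries of the same number pair cannot be read from these values: the means of same-numbered libraries deviated by a median of 0.00126 against 0.122 for single libraries, and deviations that sum to about 0 correlate negatively on average by construction (-0.49 to -0.09 over 18 pairs). The counts of reads per library are unknown, which limits what can be said of members near the level minimum.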
